A study of Homo sapiens with 8 samples.

Results

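The genes described here encode the proteins of the mitochondrial ribosome, and they were chosen by name: every protein-coding row whose symbol begins with MRPL or MRPS followed by a digit. This gave 78 genes, 49 of the large subunit (MRPL) and 29 of the small subunit (MRPS), out of 58735 genes in the table, of which 19951 were protein-coding. Transcript levels were measured by poly(A) RNA sequencing in PC3, a human cell line derived from a prostate cancer metastasis. The siPRMT7 group held 4 libraries from PC3 cells given the genotype label PRMT7 knockdown, and the siCtrl group held 4 libraries from PC3 cells labelled WT. Both groups were transfected by lipofection with synthetic RNA, the siCtrl group with a negative control, and cultured for a further 48 h; the labels estimate transfection from fluorescence only. Sample titles carry the prefix si and library names the prefix sh, and the titles set the groups. The labels do not say whether replicates were separate cultures, so p-values measure only the spread between these libraries, which may be technical.

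Mitochondrial ribosomes translate the few proteins encoded by mitochondrial DNA, all of them subunits of the respiratory chain and the ATP synthase. Their RNAs come from the mitochondrial genome, but every one of their proteins is encoded in the nucleus, made in the cytosol and imported. The small subunit reads the mRNA and the large subunit joins the amino acids, and many of these proteins have bacterial relatives while others exist only in mitochondria.

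Values were FPKM, fragments scaled by gene length and by a library size set from median ratios between libraries. The libraries held 14526030 to 15724862 fragments. PRMT7, the targeted arginine methyltransferase gene, had 4.62, 4.31, 5.01 and 4.82 FPKM in the siPRMT7 libraries, against 5.24, 4.86, 5.10 and 5.25 FPKM in the siCtrl libraries. The mean was 8.29% lower in the libraries labelled siPRMT7, the groups overlapped, and the difference did not pass a two-sided exact permutation test (p = 0.0571, where 0.0286 is the smallest p possible). On a TPM scale the log2 difference was -0.14 and passed the same exact permutation test (p = 0.0286). A direction drawn from the siPRMT7 label therefore rests on libraries in which the target transcript was only slightly lower. The epithelial markers KRT8, KRT18 and EPCAM and the intermediate filament gene VIM were present in all libraries, with group means of 7.54 to 134 FPKM in siPRMT7 libraries and 7.38 to 130 FPKM in siCtrl libraries. KLK3, which encodes prostate-specific antigen, was listed at 0 throughout. Of the markers of other cell types, PTPRC, PECAM1, COL1A1 and COL3A1 lay between group means of 0.131 and 6.72 FPKM in siPRMT7 libraries and between 0.108 and 6.79 FPKM in siCtrl libraries.

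The start regions of these genes share short sequence motifs that are known binding motifs of nuclear regulators of mitochondrial genes, and examples are printed here because many of the genes named in the results carry one. RefSeq windows of 300 bases, 250 before and 50 after the annotated start (GRCh38.p14), were found for 69 of the 78 genes, 85 windows in all. Both strands were searched for the exact letters. The ETS motif CCGGAAG was in 38.8% of the windows of these genes, against 12.8% of 22199 windows of all protein-coding genes. The YY1 motif AAGATGG was in 31.8%, against 6.04%. The core of the NRF1 motif, GCATGCG, was in 8.24%, against 4.63%, and the E-box CACGTG in 10.6%, against 8.34%. No searched motif contains another, though the YY1 letters include the ATG of a possible start codon. At least one of the ETS and YY1 motifs was present for 45 genes, both for 9 and neither for 24. Sites of 27 bases follow on the strand of the gene, 5′ to 3′, with the motif in capitals and 10 flanking bases on each side; a motif on the other strand reads as its reverse complement.
MRPL51 ETS, chr12:6493350-6493376, minus strand: ggcaggcggaCCGGAAGcactgaggcg
MRPL51 YY1, chr12:6493225-6493251, minus strand: ggtaaggcccAAGATGGctgtcttcgc
MRPL47 ETS, chr3:179604661-179604687, minus strand: gcttgagacgCCGGAAGtgacgctatc
MRPL47 YY1, chr3:179604713-179604739, minus strand: caggatgtggCCATCTTaagtgagggc
MRPS18A ETS, chr6:43687806-43687832, minus strand: gcgctacgttCCGGAAGcggaaatgga
MRPS18A YY1, chr6:43687766-43687792, minus strand: taggtttttgAAGATGGcggccctcaa
MRPS12 ETS, chr19:38930929-38930955, plus strand: cggatagcgcCCGGAAGaggctagaag
MRPS12 YY1, chr19:38930723-38930749, plus strand: atggacgcagCCATCTTggaccgggaa
MRPL40 ETS, chr22:19432524-19432550, plus strand: gggcgcacgcCCGGAAGcggcgagggt
MRPL54 ETS, chr19:3762651-3762677, plus strand: ccactgacgtCTTCCGGaaacgtgcac
MRPL46 YY1, chr15:88467364-88467390, minus strand: gggagaacgaAAGATGGcggcgcccgt
MRPS27 YY1, chr5:72320208-72320234, minus strand: ggtacgctccAAGATGGctgcctccat
The first 8 lines are pairs from genes that hold both motifs, and the last 4 are from genes that hold 1 of them and whose values are described in detail below. A match of letters does not show that the factor binds there.

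The levels of the 78 genes spanned a wide range and kept nearly the same order in both groups. The median gene had 17.0 FPKM in siPRMT7 libraries and 16.5 FPKM in siCtrl libraries, and 54 genes in siPRMT7 libraries and 53 in siCtrl libraries averaged at least 10 FPKM. Large subunit genes had a median of 19.3 FPKM in siPRMT7 libraries and 17.997 FPKM in siCtrl libraries. Small subunit genes had a median of 13.5 FPKM in siPRMT7 libraries and 12.6 FPKM in siCtrl libraries. MRPS34, a protein found only in mitochondrial ribosomes, was the most abundant transcript with 75.2 ± 7.09 FPKM in siPRMT7 libraries and 70.3 ± 2.18 FPKM in siCtrl libraries (SD, n = 4 each). MRPS16, a relative of bacterial S16, stood at 67.5 ± 4.65 FPKM in siPRMT7 libraries and 64.1 ± 1.02 FPKM in siCtrl libraries (SD, n = 4 each). In the large subunit the highest were MRPL14, a relative of bacterial L14, and MRPL58, which retains the ability to release stalled peptides. MRPL14 had 69.4 ± 11.7 FPKM in siPRMT7 libraries and 60.2 ± 7.28 FPKM in siCtrl libraries, and MRPL58 had 61.8 ± 7.73 FPKM in siPRMT7 libraries and 56.7 ± 2.06 FPKM in siCtrl libraries (SD, n = 4 each). In siPRMT7 libraries each of these 4 genes differed from its neighbour in the order of levels by less than the larger of their SDs. In siCtrl libraries MRPS34 lay above MRPS16 by more than either SD, and the other neighbours did not differ by more than the larger SD.

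**Figure D1:**
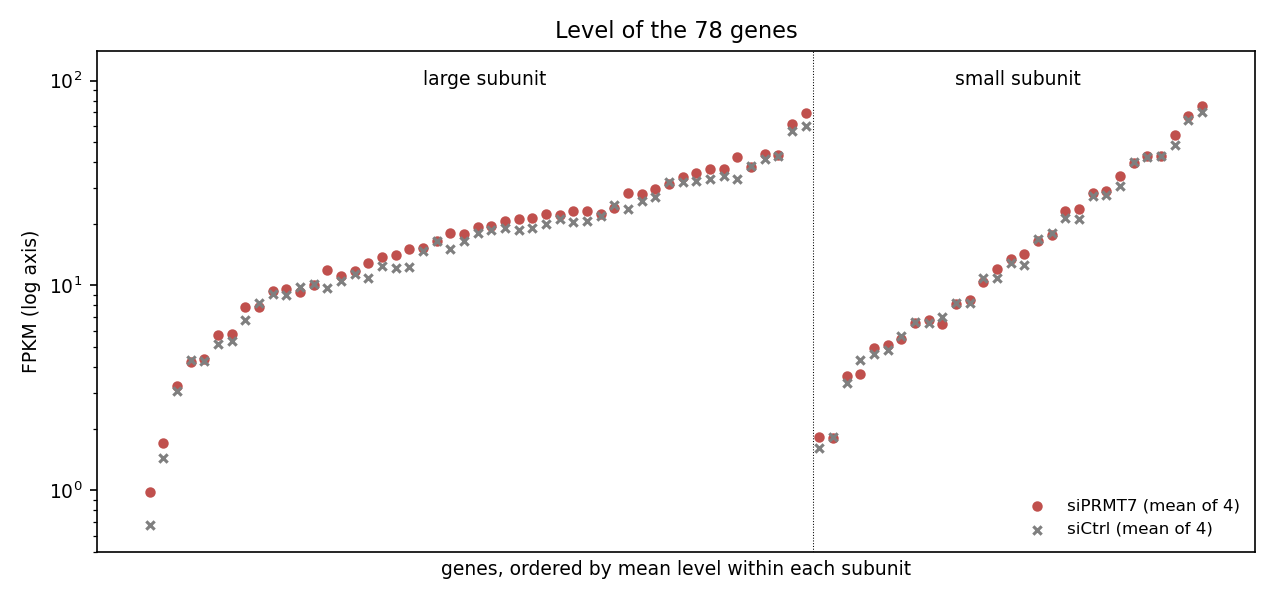
Mean FPKM (log axis) of the 78 mitochondrial ribosomal protein genes in siPRMT7 libraries (circles) and siCtrl libraries (crosses), ordered within each subunit by mean level. The markers of a gene lie close together across the range, except at the low end of the large subunit, where MRPL46 is at 0.976 FPKM in siPRMT7 libraries and 0.679 FPKM in siCtrl libraries.

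At the low end were MRPL46 and MRPL38 of the large subunit, both proteins of its central protuberance, and MRPS18C and MRPS24 of the small subunit. MRPL38 had 1.71 ± 0.130 FPKM in siPRMT7 libraries and 1.44 ± 0.359 FPKM in siCtrl libraries. MRPS18C had 1.80 ± 0.319 FPKM in siPRMT7 libraries and 1.82 ± 0.311 FPKM in siCtrl libraries. MRPS24 had 1.815 ± 0.407 FPKM in siPRMT7 libraries and 1.603 ± 0.168 FPKM in siCtrl libraries (SD, n = 4 each for all 3 genes). The low values are less certain than the high ones, because they rest on few fragments. Per library there were 56 to 104 for MRPL38, 115 to 165 for MRPS18C and 52 to 92 for MRPS24. In addition, MRPL38 shares 37.5% of its exonic bases with another gene on the same strand. MRPS18C shares 40.2% with ABRAXAS1 on the opposite strand, and MRPS24 23.2% with a read-through gene. Sharing is not limited to low levels, since MRPL12 shares 68.2%. The sources used here do not say if strand was used in counting. Across the 78 genes, Spearman's rho of the levels was 0.997 between group means and 0.988 to 0.995 between pairs of libraries, a description across genes that share libraries and lengths.

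No mitochondrial ribosomal protein gene passed the test between siPRMT7 and siCtrl libraries. Of the 78 genes, 77 had at least 1 FPKM in at least 4 of the 8 libraries and were tested, and 0 of 77 had a limma adjusted p under 0.05, against 0.0149% of all 13436 genes tested (2 genes). The voom fit on rebuilt fragment counts also called 0 of them. At an unadjusted limma p under 0.05 there were 6 of 77, or 7.79%, against 13.2% of all genes tested. Of these, 5 were higher in siPRMT7 libraries, where 7.67% of all genes tested were, and 1 was lower, where 5.49% were. The count of 6 was 23 without siPRMT7 replicate 1, 3 without siPRMT7 replicate 3, and 2, 4 and 3 without siCtrl replicates 1, 2 and 4. The 13.2% holds for the fit of all 8 libraries only. Shares of all genes in the fits with 1 library left out are not given here. These changed counts therefore cannot be read as particular to the mitochondrial ribosomal protein genes. In bulk RNA, fewer cells of a kind and less RNA per cell cannot be told apart. The lowest adjusted p was 0.286, for MRPL40.

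Although single genes did not pass, most fitted differences were on the higher side in siPRMT7 libraries, and more so in the large subunit. The median log2 fold change after adding 1 FPKM, a scale that shrinks the changes of weakly expressed genes, was 0.08 over the 77 genes, with 59 above 0, or 76.6%. Over all genes tested, 49.5% were above 0. In the large subunit 40 of 48 genes were above 0, with a median of 0.11 and a range of -0.08 to 0.34. In the small subunit 19 of 29 were above 0, with a median of 0.04 and a range of -0.18 to 0.15. The medians differed by 0.06. Scaling to TPM, which moved the median of all genes to -0.04, gave medians of 0.07 and 0.004 for large and small subunit. No test was made of these medians, because the genes share libraries and vary together.

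**Figure D2:**
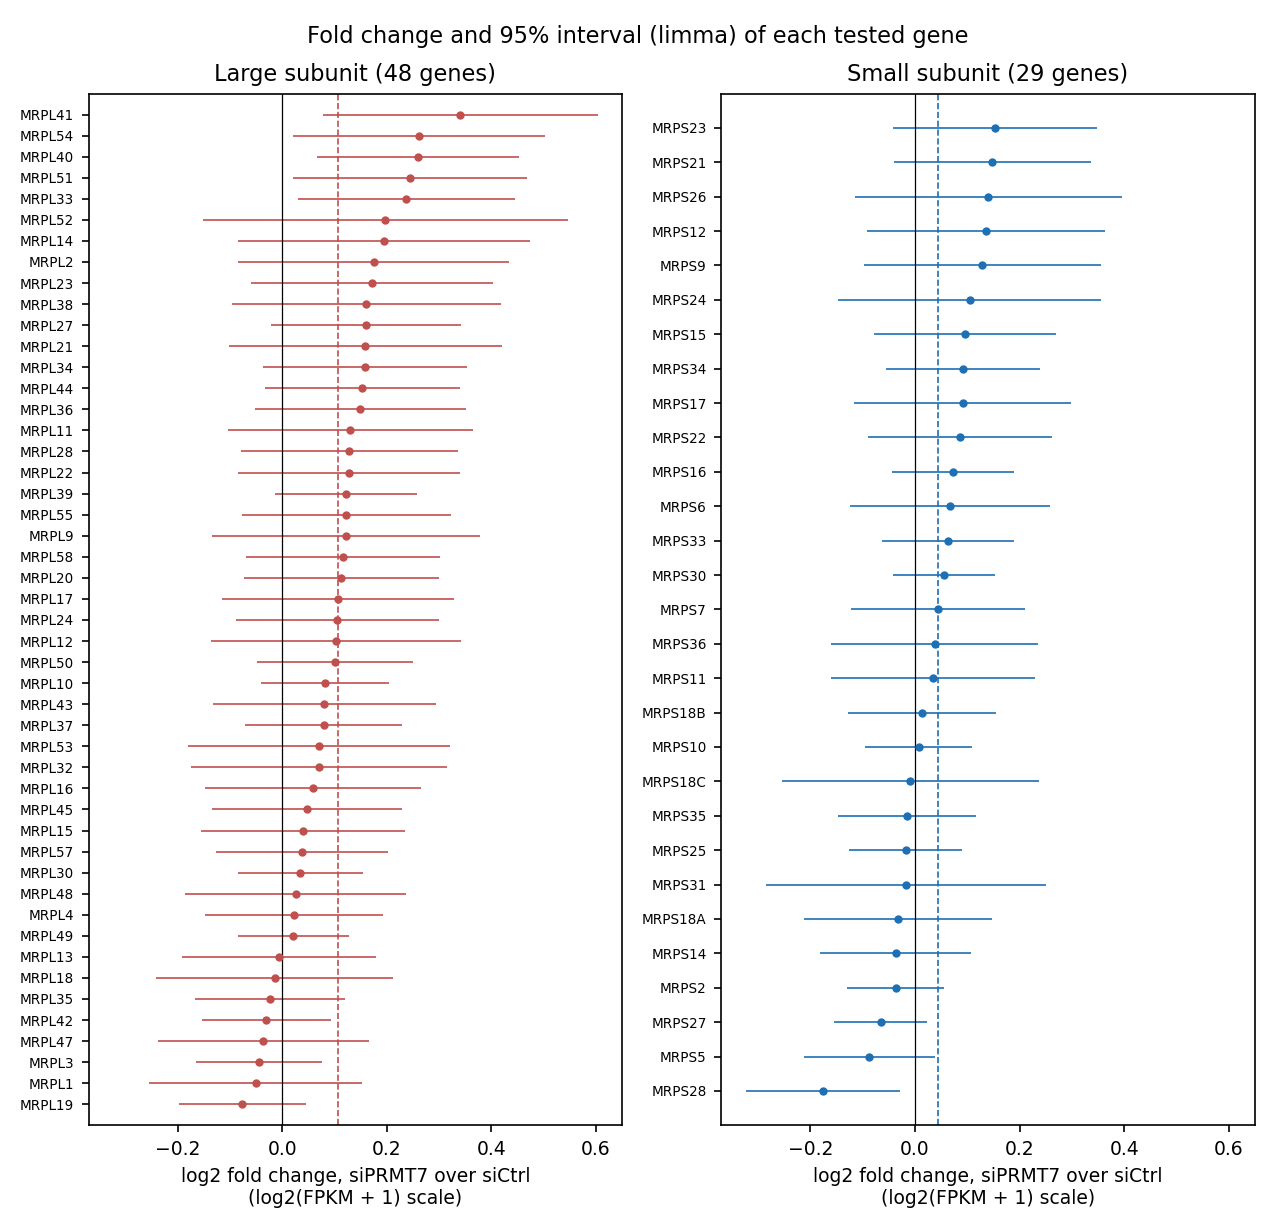
Log2 fold change, siPRMT7 over siCtrl, with its 95% interval from limma, for each tested gene of the large subunit (left) and small subunit (right); the dashed line is the median of each panel, 0.11 and 0.04. Most points lie right of 0, most intervals cross 0, and MRPL41 at the top and MRPS28 at the bottom lie farthest out.

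The size of this lean depended on which siPRMT7 libraries were included. siPRMT7 replicate 2 was the highest of the 8 libraries for 60 of the 78 genes, 41 of 49 in the large subunit and 19 of 29 in the small subunit, and the lowest for 0. Among all genes tested it was the highest for 29.6% and the lowest for 27.3%. siPRMT7 replicate 1 was the lowest library for 32 of the 78 genes, and for 12.7% of all genes tested. Without siPRMT7 replicate 2 the median log2 fold change was 0.03 over all 77 genes, with 46 above 0. The large subunit median was then 0.04 and the small subunit median -0.02, with 33 of 48 and 13 of 29 genes above 0. Without siPRMT7 replicate 1 the medians were 0.13 over all 77 genes, with 67 above 0, 0.15 for the large subunit and 0.07 for the small subunit.

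The per-library means show the same split. Measured as the mean of log2(FPKM + 1) minus the siCtrl mean, the large subunit stood at -0.06, 0.29, 0.11 and 0.05 in siPRMT7 libraries 1 to 4, against -0.03, -0.02, 0.09 and -0.04 in siCtrl libraries 1 to 4. The small subunit stood at -0.08, 0.17, 0.06 and -0.01 in siPRMT7 libraries, against 0.01, -0.01, 0.02 and -0.03 in siCtrl libraries. In both subunits the siPRMT7 libraries lay on both sides of the siCtrl libraries, so the groups overlapped. The difference of large minus small subunit means was 0.02, 0.12, 0.05 and 0.06 in siPRMT7 libraries, against -0.04, -0.01, 0.06 and -0.02 in siCtrl libraries, and these overlapped too. The ratio of summed FPKM, large over small subunit, was 1.70 ± 0.047 in siPRMT7 libraries and 1.64 ± 0.041 in siCtrl libraries (SD, n = 4 each).

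Cytosolic ribosomal protein genes, which build the separate ribosome of the cytosol, ran alongside the mitochondrial ones across these libraries. Their mean stood at -0.06, 0.35, 0.17 and 0.04 in siPRMT7 libraries, against -0.03, -0.05, 0.09 and -0.01 in siCtrl libraries. Of 79 tested, 76 were above 0, with a median of 0.13, and 0 passed, against 0.0149% of all genes tested. Without siPRMT7 replicate 2 the median was 0.05 with 65 above 0. With each library's cytosolic ribosomal protein level as a covariate, the median of the mitochondrial ribosomal protein genes was -0.004, with 36 of 77 above 0. The part of the cytosolic ribosomal protein level in the result was not tested beyond this covariate.

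**Figure D3:**
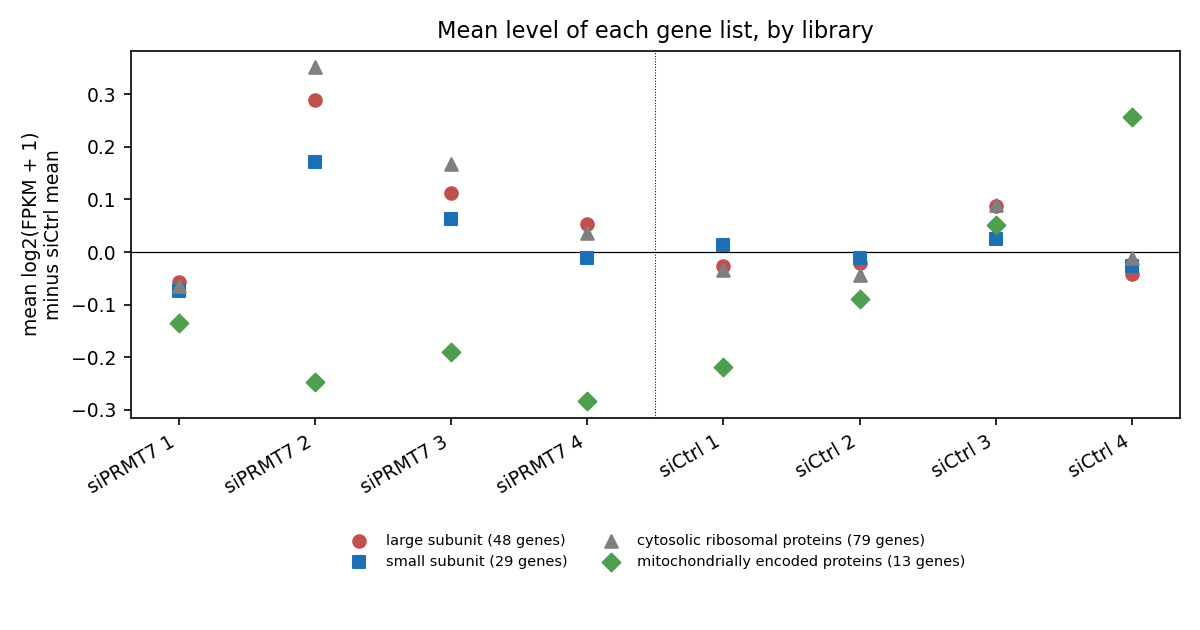
Mean log2(FPKM + 1) of each gene list minus its siCtrl mean, for the 4 siPRMT7 libraries (left) and the 4 siCtrl libraries (right). siPRMT7 replicate 2 is highest for the large subunit (0.29), the small subunit (0.17) and the cytosolic ribosomal proteins (0.35), and the mitochondrially encoded proteins run differently, with their highest value of 0.26 in siCtrl replicate 4.

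The highest fold changes all belonged to the large subunit. MRPL41 (ENSG00000182154, chr9:137551199-137552555, plus strand), a mitochondria-specific protein, had 34.4, 50.2, 41.7 and 43.1 FPKM in siPRMT7 libraries, against 33.2, 29.7, 38.7 and 30.8 FPKM in siCtrl libraries. siPRMT7 replicates 2, 3 and 4 exceeded the highest siCtrl value, and the groups overlapped through siPRMT7 replicate 1. The log2 fold change was 0.34 with a standard error of 0.12 and a limma adjusted p of 0.291. It was 0.26 without siPRMT7 replicate 2.

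MRPL40 (ENSG00000185608, chr22:19431902-19436075, plus strand), a protein of the central protuberance, had 12.9, 17.3, 15.3 and 14.4 FPKM in siPRMT7 libraries, against 12.05, 11.2, 12.7 and 13.3 FPKM in siCtrl libraries. Only siPRMT7 replicate 1 lay within the siCtrl range. Its log2 fold change was 0.26 with a standard error of 0.09 and a limma adjusted p of 0.286.

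MRPL54 (ENSG00000183617, chr19:3762664-3768575, plus strand), near the base of the stalk that receives elongation factors, had 9.75, 11.6, 14.9 and 11.5 FPKM in siPRMT7 libraries, against 9.54, 8.98, 10.0 and 10.3 FPKM in siCtrl libraries. Its highest library was siPRMT7 replicate 3, not replicate 2, and its log2 fold change was 0.26, or 0.27 without siPRMT7 replicate 2 and 0.16 without siPRMT7 replicate 3. MRPL51 (ENSG00000111639, chr12:6491886-6493841, minus strand), a mitochondria-specific protein, had 23.3, 33.5, 28.6 and 28.03 FPKM in siPRMT7 libraries, against 22.4, 23.9, 26.0 and 22.3 FPKM in siCtrl libraries. Its log2 fold change was 0.24 with a limma adjusted p of 0.350, and 31.3% of its exonic bases are shared with NCAPD2 on the opposite strand. MRPL33, named here after its values were seen, completed the 5 genes above 0 at an unadjusted p under 0.05, with a log2 fold change of 0.24. In all 5 the siPRMT7 and siCtrl ranges overlapped, and for comparison 4.14% of all genes tested had every siPRMT7 value above the siCtrl range.

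**Figure D4:**
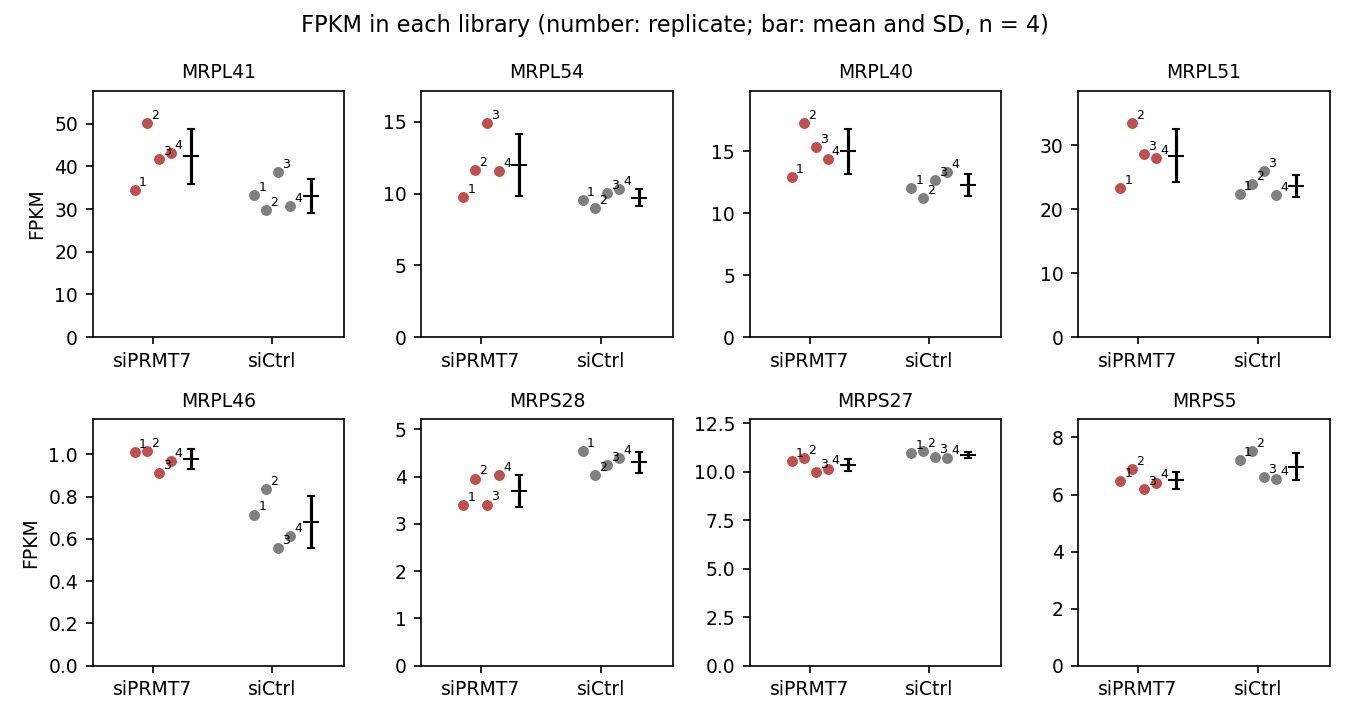
FPKM in each library of 8 genes, siPRMT7 (red) left of siCtrl (grey); numbers are replicates and bars are mean and SD (n = 4). In the upper row siPRMT7 replicate 1 falls within the siCtrl range for every gene; in the lower row only MRPL46 and MRPS27 have ranges that do not overlap.

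The lowest fold changes of the large subunit were those of MRPL19 (-0.08), MRPL1 (-0.05), MRPL3 (-0.04) and MRPL47 (-0.04), all relatives of bacterial ribosomal proteins. MRPL19 had 9.45, 9.64, 8.93 and 9.03 FPKM in siPRMT7 libraries, against 9.04, 9.91, 9.74 and 10.7 FPKM in siCtrl libraries. MRPL47, at the exit site of the nascent peptide, had 29.3, 38.7, 28.9 and 28.9 FPKM in siPRMT7 libraries, against 31.0, 31.995, 32.7 and 32.6 FPKM in siCtrl libraries. For MRPL47 the replicate 2 value lay above all siCtrl libraries and the other 3 siPRMT7 values lay below them, so that its log2 fold change was -0.14 without replicate 2.

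MRPS28 (ENSG00000147586, chr8:79918717-80030289, minus strand) had the lowest fold change of all 77 genes. It had 3.40, 3.96, 3.41 and 4.03 FPKM in siPRMT7 libraries, against 4.54, 4.03, 4.25 and 4.40 FPKM in siCtrl libraries. The groups met only at siPRMT7 replicate 4 and siCtrl replicate 2. The log2 fold change was -0.18 with a standard error of 0.07 and a limma adjusted p of 0.313, and -0.20 without siPRMT7 replicate 2. It rests on 93 to 131 fragments per library, and 35.8% of its exonic bases are shared with another gene on the same strand.

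MRPS27 (ENSG00000113048, chr5:72219409-72320646, minus strand), a mitochondria-specific protein with helical repeats, was the only one of the 77 tested genes whose groups did not overlap, against 8.57% of all genes tested, 4.43% with siPRMT7 lower. It had 10.5, 10.7, 9.99 and 10.2 FPKM in siPRMT7 libraries, against 10.9, 11.1, 10.8 and 10.7 FPKM in siCtrl libraries. The highest siPRMT7 library and the lowest siCtrl library both round to 10.7 FPKM, the log2 fold change was -0.07, and the limma adjusted p was 0.482. Also on the lower side were MRPS5 (-0.09), a relative of bacterial S5 that lies near the mRNA entrance, and MRPS2 (-0.04), a relative of bacterial S2. MRPS5 averaged 6.503 ± 0.294 FPKM in siPRMT7 libraries and 6.98 ± 0.467 FPKM in siCtrl libraries (SD, n = 4 each).

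The highest fold changes in the small subunit were smaller than those in the large subunit. They were 0.15 for MRPS23 and MRPS21 and 0.14 for MRPS26 and MRPS12, with limma adjusted p of 0.464 to 0.588. MRPS23 had 11.9, 16.3, 15.3 and 13.2 FPKM in siPRMT7 libraries, against 12.8, 12.2, 12.7 and 12.6 FPKM in siCtrl libraries, so siPRMT7 replicate 1 lay below and the other 3 above every siCtrl library. MRPS12, a relative of the bacterial S12 protein of the decoding centre, had 20.4, 27.6, 26.0 and 20.3 FPKM in siPRMT7 libraries, against 22.1, 19.7, 21.6 and 21.3 FPKM in siCtrl libraries. Without siPRMT7 replicate 2 the log2 fold changes of MRPS23, MRPS12 and MRPS26 were 0.09, 0.06 and 0.07. Over the libraries left out in turn, that of MRPS26 ranged from 0.07 to 0.26 and that of MRPS21 from 0.09 to 0.23.

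MRPL46 (ENSG00000259494, chr15:88459476-88467419, minus strand), a protein of the central protuberance, did not reach the level set for the test, since only 2 libraries had 1 FPKM or more. It had 1.01, 1.01, 0.911 and 0.969 FPKM in siPRMT7 libraries, against 0.714, 0.836, 0.554 and 0.611 FPKM in siCtrl libraries. These values came from 101, 98, 88 and 91 fragments in siPRMT7 libraries, against 73, 86, 54 and 57 fragments in siCtrl libraries. The groups did not overlap, as for 4.41% of genes when no filter on level was used, and the ratio of means was 1.44, or 1.42 without siPRMT7 replicate 2. In that fit without a filter the log2 fold change was 0.24 and the limma adjusted p was 0.604; 0.0141% of the genes in that fit passed. Of its exonic bases 11.3% are shared with another gene on the same strand. MRPS11, whose start lies 34 bases from that of MRPL46 on the other strand, had a log2 fold change of 0.03.

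Several genes are named for one subunit and known to belong elsewhere. MRPS18A and MRPS30 are placed in the large subunit by structures, and MRPS36 is a component of the oxoglutarate dehydrogenase complex. MRPS30 had 13.5 ± 0.224 FPKM in siPRMT7 libraries and 12.9 ± 0.603 FPKM in siCtrl libraries, and MRPS36 had 8.49 ± 1.30 FPKM in siPRMT7 libraries and 8.19 ± 0.372 FPKM in siCtrl libraries (SD, n = 4 each). Grouped by placement instead of name, the medians of the log2 fold changes were 0.10 for 50 large subunit genes and 0.05 for 26 small subunit genes. The MRPS18 paralogs, which occupy different sites, differed widely in level and little between groups. MRPS18B had 43.0 ± 3.97 FPKM in siPRMT7 libraries and 42.5 ± 0.912 FPKM in siCtrl libraries, and MRPS18A had 17.5 ± 1.82 FPKM in siPRMT7 libraries and 17.9 ± 1.40 FPKM in siCtrl libraries (SD, n = 4 each). MRPS18A shares 47.0% of its exonic bases with RSPH9 on the opposite strand. The log2 fold changes of MRPS18A, MRPS18B and MRPS18C were -0.03, 0.01 and -0.01, and all 3 were below 0 without siPRMT7 replicate 2.

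By structural class, relatives of bacterial proteins and mitochondria-specific proteins of the large subunit had medians of 0.11 each, with 23 of 30 and 17 of 18 above 0. In the small subunit the medians were 0.06 each, with 11 of 16 and 5 of 9 above 0. The 5 genes of the stalk and its base, MRPL10, MRPL11, MRPL12, MRPL53 and MRPL54, ranged from 0.07 to 0.26. Of these, MRPL12 and MRPL53 share 68.2% and 45.2% of their exonic bases with another gene on the same strand. Of the central protuberance genes 4 of 5 were above 0, with a median of 0.12, and of the genes around the peptide exit 5 of 6, with a median of 0.11. No class held a gene that passed the test, against 0.0149% of all genes tested. Leaving out siPRMT7 replicate 2 reduced these medians to 0.04 and 0.07 for the 2 large subunit classes and to -0.01 and 0.03 for the 2 small subunit classes. It gave 0.04 for the stalk, 0.06 for the central protuberance and 0.03 for the peptide exit, where with the ribosomal protein covariate 2 of 6 genes were above 0 and the median was -0.02.

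The spread between libraries sets what could be seen. The median coefficient of variation of a tested gene's FPKM was 12.2% over siPRMT7 libraries, 8.05% without replicate 2, and 6.05% over siCtrl libraries, where counting alone would give 4.04%. Standard errors of the log2 fold changes ran from 0.04 to 0.15. Turned back into ratios of FPKM, siPRMT7 over siCtrl, the 95% interval excluded a 1.5-fold change in either direction for 74 of 77 genes. The other 3 were MRPL38, MRPL41 and MRPL52, with upper limits of 1.57, 1.54 and 1.502.

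Gene length went along with the fold changes. The tested mitochondrial ribosomal protein genes had a median length of 2539 exonic bases. In protein-coding genes as a whole shorter genes had higher values in siPRMT7 libraries, with Spearman's rho of -0.48 across 10934 genes and -0.30 across the 77. Without siPRMT7 replicate 2 rho was -0.28 for each. Among protein-coding genes of up to 2539 bases, the median log2 fold change was 0.10 and 80% were above 0. The 40 mitochondrial ribosomal protein genes of that length had a median of 0.11, also with 80% above 0. Without siPRMT7 replicate 2 these medians were 0.06 for protein-coding genes and 0.04 for the mitochondrial ribosomal protein genes. From there to 5000 bases the 27 genes had a median of 0.07 with 21 above 0, against 0.03 and 60.5% for protein-coding genes. The 10 genes above 5000 bases had a median of 0.045 with 60% above 0, against -0.04 and 31.4% for protein-coding genes of that length. Within the subunits, rho was -0.32 over the 48 large subunit genes and -0.14 over the 29 small subunit genes, or -0.39 and -0.01 without siPRMT7 replicate 2. Small subunit genes of up to 2539 bases had a median of 0.025 and longer ones 0.055. Removing each library's trend on gene length gave medians of 0.04 for the large and 0.01 for the small subunit, and the part of length in the result was not otherwise tested.

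**Figure D5:**
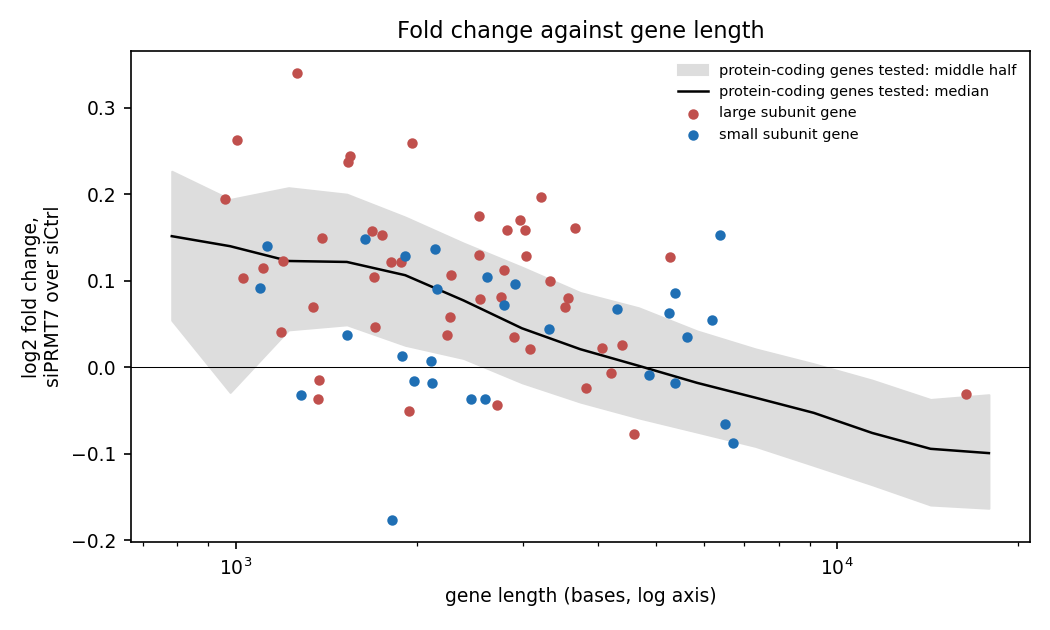
Log2 fold change, siPRMT7 over siCtrl, against gene length in bases (log axis) for the 77 tested genes; the line and band are the median and interquartile range of all protein-coding genes tested in bins of length. Most points lie in or near the band, which falls with length, and MRPL41 (0.34) lies above it and MRPS28 (-0.18) below it.

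Start regions were compared with the fold changes next. The 30 tested genes with an ETS motif had a median log2 fold change of 0.09, against 0.07 for the 38 with a window but no such motif. The 23 with a YY1 motif had a median of 0.07, against 0.09 for 45 without it. MRPL51 and MRPL47, which hold both motifs in the sites printed above, had fold changes of 0.24 and -0.04, and MRPS12 and MRPS18A, which also hold both, had 0.14 and -0.03. Genes with these letters thus lay on both sides of 0.

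Many of these genes start next to another gene on the opposite strand. A protein-coding neighbour running the other way, with its start within 1000 bases, was found for 29 of 78 genes, or 37.2%, against 12.96% of all protein-coding genes. In 21 such pairs both genes were tested, and 6 pairs were both above 0, 3 both below 0 and 12 opposite. The log2 fold changes were 0.15 for MRPL36 and 0.24 for its neighbour NDUFS6, and -0.04 for MRPL47 and 0.06 for NDUFB5; both neighbours encode subunits of respiratory complex I. They were -0.01 for MRPL13 and -0.17 for MTBP, and 0.24 for MRPL51 and -0.14 for the condensin subunit gene NCAPD2. Of the 78 genes, 41 share at least 1 exonic base with some other gene and 14 share more than 20%, on the same strand for 7 and on the opposite strand for 7.

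The 5 mitochondrial ribosomal proteins with other symbols, DAP3, PTCD3, CHCHD1, AURKAIP1 and GADD45GIP1, were all above 0, with a median of 0.10 and 0 called. For this list and those that follow, the share called among all genes tested was 0.0149%. CHCHD1, of the small subunit, had 51.1, 77.3, 60.1 and 59.1 FPKM in siPRMT7 libraries, against 52.8, 49.2, 57.3 and 45.5 FPKM in siCtrl libraries, with siPRMT7 replicate 2 highest and a log2 fold change of 0.26, or 0.15 without it. AURKAIP1, also of the small subunit, had 127 ± 17.2 FPKM in siPRMT7 libraries and 112 ± 5.69 FPKM in siCtrl libraries (SD, n = 4 each). Without siPRMT7 replicate 2, 3 of the 5 were above 0.

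Among factors that assemble the mitochondrial ribosome, 15 of 24 tested were above 0, with a median of 0.04 and 0 called. ERAL1, a GTPase that binds the small subunit rRNA, had 18.3, 20.7, 20.5 and 18.8 FPKM in siPRMT7 libraries, against 17.5, 18.02, 17.1 and 16.2 FPKM in siCtrl libraries. The siPRMT7 values were all above the siCtrl range, as for 4.14% of all genes tested. The log2 fold change was 0.18 with a limma adjusted p of 0.262, and 0.15 and 0.293 without siPRMT7 replicate 2. FASTKD2, an RNA-binding protein of the large subunit's assembly, had 6.13 ± 0.509 FPKM in siPRMT7 libraries and 6.80 ± 0.354 FPKM in siCtrl libraries (SD, n = 4 each).

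Translation factors had a median of 0.03, with 10 of 15 above 0 and 0 called; without siPRMT7 replicate 2 the median was -0.004 with 7 above 0, and with the ribosomal protein covariate 6 were above 0. GUF1, the mitochondrial relative of the bacterial elongation factor LepA, had 7.87, 7.85, 7.74 and 7.81 FPKM in siPRMT7 libraries, against 8.98, 8.35, 8.70 and 8.202 FPKM in siCtrl libraries. Every siPRMT7 library lay below every siCtrl library, as for 4.43% of all genes tested. The log2 fold change was -0.12 and the limma adjusted p was 0.307. SLIRP, which stabilises mitochondrial mRNAs with LRPPRC, had a log2 fold change of 0.23, or 0.13 without siPRMT7 replicate 2 and 0.09 with the covariate.

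Mitochondrial tRNA synthetase genes had a median of -0.02, with 5 of 16 above 0 and 0 called; without siPRMT7 replicate 1 the median was 0.004 with 9 above 0. TARS2, which charges the tRNA for threonine, had 14.3 ± 0.738 FPKM in siPRMT7 libraries and 14.9 ± 0.555 FPKM in siCtrl libraries (SD, n = 4 each). Genes of mitochondrial transcription and RNA processing had a median of 0.02, with 7 of 9 above 0 and 0 called. This direction did not hold without siPRMT7 replicate 2, where the median was -0.002 with 4 above 0, and 3 of 9 were above 0 on the TPM scale, with the covariate and with the length trend removed. MTERF2, a mitochondrial DNA-binding protein, had 3.22 ± 0.180 FPKM in siPRMT7 libraries and 2.71 ± 0.187 FPKM in siCtrl libraries (SD, n = 4 each). Its groups did not overlap, with siPRMT7 higher as for 4.14% of all genes tested, and the limma adjusted p was 0.286. TFAM, which packages mitochondrial DNA, had 18.1 ± 0.657 FPKM in siPRMT7 libraries and 19.1 ± 0.996 FPKM in siCtrl libraries (SD, n = 4 each).

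Regulators of nuclear genes for mitochondria had a median of -0.05, with 2 of 8 above 0 and 0 called. NRF1, the factor whose core motif was searched, had 4.19, 4.16, 4.08 and 4.12 FPKM in siPRMT7 libraries, against 4.27, 4.50, 5.01 and 4.36 FPKM in siCtrl libraries. The groups did not overlap, with siPRMT7 lower as for 4.43% of all genes tested. The log2 fold change was -0.11, or -0.07 without siCtrl replicate 3, and the limma adjusted p was 0.428. The coactivator gene PPARGC1B had 0.857 ± 0.164 FPKM in siPRMT7 libraries and 1.08 ± 0.124 FPKM in siCtrl libraries (SD, n = 4 each).

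The mitochondrially encoded proteins, which these ribosomes make, stood on the other side of 0 from most mitochondrial ribosomal protein genes. All 13 were below 0, with a median log2 fold change of -0.20 and 0 called. Their mean of log2(FPKM + 1) minus the siCtrl mean was -0.14, -0.25, -0.19 and -0.28 in siPRMT7 libraries 1 to 4. In siCtrl libraries 1 to 4 it was -0.22, -0.09, 0.05 and 0.26. The groups overlapped at siCtrl replicate 1, and these genes share libraries, so the 13 are not separate observations. MT-CYB, a subunit of complex III, had 806, 709, 751 and 690 FPKM in siPRMT7 libraries, against 797, 875, 926 and 1063 FPKM in siCtrl libraries. MT-ND5, of complex I, had 335 ± 42.6 FPKM in siPRMT7 libraries and 429 ± 64.7 FPKM in siCtrl libraries (SD, n = 4 each). For both genes the groups overlapped through siPRMT7 replicate 1 and siCtrl replicate 1, and the highest value lay in siCtrl replicate 4. The ribosomal RNAs, which poly(A) selection captures in part, had log2 fold changes of -0.10 for MT-RNR2 and 0.08 for MT-RNR1. MT-RNR1 had 603, 641, 624 and 608 FPKM in siPRMT7 libraries, against 502, 488, 618 and 787 FPKM in siCtrl libraries. Nuclear genes for respiratory chain subunits had a median of 0.11, with 68 of 75 above 0 and 0 called, and a median of 0.05 without siPRMT7 replicate 2.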

How the data were processed

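Poly(A) RNA was sequenced in 8 PC3 libraries, 4 siPRMT7 and 4 siCtrl, grouped by title. The authors deposited FPKM values per gene. Per the submitters' processing notes, cutadapt (2.5), HISAT2 (2.1.0) and featureCounts (1.6.3) were used; the notes also name mm10, but all 58735 genes carry human identifiers whose start, end and strand match GENCODE 29 (GRCh38), which supplied coordinates. FPKM times gene length gave whole fragments within a tolerance of 0.01 for 100% of values above 0, and the deposited FPKM proved to be scaled between libraries by median ratios already.

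The 13436 genes that reached 1 FPKM in 4 or more of the 8 libraries entered a limma fit (3.58.1, R 4.3.3) of log2(FPKM + 1), with variance trend, two-sided, Benjamini-Hochberg adjustment over all of them, threshold 0.05. PRMT7 was tested by exact permutation over 70 assignments. Named genes were, in each subunit, the 4 highest and 4 lowest fold changes and the 2 highest and 2 lowest levels, the MRPS18 paralogs, MRPS30, MRPS36, the gene that failed the filter, and the 2 smallest p per pathway list; 1 gene of a pathway list and 1 marker are not reported here. Of the promoter windows, those of 69 genes matched by symbol. Pseudogenes of these genes held 0.284 to 0.499% as many fragments as the genes themselves; how multiply mapped reads were handled is not stated. Members and lists were chosen with earlier results of these data known. Alternatives were other pseudocounts, filters, scalings, library weights, voom on fragments, a replicate block, a ribosomal protein covariate, each library left out and, chosen after seeing the data, removal of the gene length trend. The fit was also run on simulated counts with known fold changes, drawn separately for each gene. These had no shift shared by genes within a library, as in siPRMT7 replicate 2, so they do not show how the fit handles one. Counting limits cover counting error only.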

Additional observations from a re-analysis of the deposited data

Results flagged for a closer look

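Among 116 groups of 4 libraries checked for a single library far from the other 3, 6 were flagged, and chance flags about 1 in 20 such groups. MRPL1 was high in siPRMT7 replicate 2 at 9.63 FPKM, with the other siPRMT7 libraries between 7.12 and 7.51 FPKM. MRPL47 was high in the same library at 38.7 FPKM, with the others between 28.9 and 29.3 FPKM. The ratio of the median FPKM of large over small subunit genes was also highest there at 1.54, with the other siPRMT7 libraries between 1.38 and 1.40. Among siCtrl libraries, MRPL3 was high in replicate 4 at 25.9 FPKM, with the others between 24.1 and 24.3 FPKM. MRPS26 was high in siCtrl replicate 3 at 52.9 FPKM, with the others between 46.7 and 47.5 FPKM. The large subunit mean of log2(FPKM + 1) was high in siCtrl replicate 3 at 0.088 above the siCtrl mean, with the other siCtrl libraries between -0.042 and -0.021.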

How the results depend on the processing

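No mitochondrial ribosomal protein gene passed the threshold under any alternative run; the lowest limma adjusted p ranged from 0.102 (MRPL41, without siPRMT7 replicate 1) to 0.570 (no filter). Of 824 recomputed values for 44 single genes, 800 kept their direction and side of the threshold and 24 reversed. The cause was not tested for any change given here. Genes called among all tested numbered 2, against 1 with a pseudocount of 0.1, 5 with no filter, 1 with a minimum of 5 FPKM, 1 with quantile scaling, 58 with library weights, 0 with a replicate block, 12 with voom, 27 with the ribosomal protein covariate, 42 with the length trend removed and 0 to 2 with 1 library left out. Same-numbered libraries correlated at -0.03 to 0.06 in their deviations from the group means, so the numbers were not taken as pairs, and the replicate block left the median of the 77 genes at 0.08 with 0 called. Genes above 0 numbered 36 with the covariate and 46 to 67 with 1 library left out; the median ranged from 0.03 to 0.13, that of the large subunit from 0.04 to 0.15, that of the small subunit from -0.02 to 0.07 and their difference from 0.04 to 0.09. With the length trend removed the difference was 0.027. On a TPM scale, where the median of all genes tested was -0.04, PRMT7 had a log2 difference of -0.14 and passed its permutation test (p = 0.0286). Signs turned for MRPS18B at -0.028 (TPM), -0.042 (quantile), -0.00664 (weights), -0.072 (covariate) and -0.074 (length), MRPS36 at -0.045, -0.048 and -0.053 (weights, covariate, length), MRPS26 at -0.013 (covariate), MRPL53 at -0.019 (length), MRPS18C at 0.00567 (quantile) and MT-RNR1 at -0.035 (quantile) and -0.00295 (length). With 1 library left out they spanned -0.082 to 0.0098 for MRPS18A, -0.042 to 0.062 for MRPS18B, -0.084 to 0.049 for MRPS18C, -0.053 to 0.089 for MRPS36 and -0.014 to 0.215 for MT-RNR1. Depth limited MRPL46, MRPL53, MRPS24 and MRPL38 most, with 51 to 104 fragments per library.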
